A study of Mus musculus with 17 samples.

Results

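A set of 43 genes of the cell cycle and of cell cycle exit was followed through 17 RNA-seq libraries of mouse retinal pigment epithelium (RPE). The genes were chosen by name from their textbook roles, with earlier results of these data known, out of the 22253 genes of the count table, and all 43 were in it. They comprised 3 D-type cyclins, 2 E-type cyclins, 3 G1 and S kinases, 3 CIP/KIP inhibitors, 4 INK4 inhibitors, p53, 3 pocket proteins, 4 E2F factors, 7 genes of the replication helicase and clamp, 2 fork protection genes and 11 genes of S, G2 and M phase. The question was whether any pool of cells held transcripts of dividing cells, or of arrest in G1.

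Each library came from a pool of RPE cells picked by hand, 10 to 15 cells according to the labels, from 2-month-old Serpine3GFP/+ mice without treatment. In these mice 1 Serpine3 allele carries GFP, so that cells using the gene fluoresce, and the control cells carry the same allele. There were 6 libraries of GFP+-RPE, 5 of peripheral GFP–-RPE (labelled ctrl periphery) and 6 of central GFP–-RPE (labelled ctrl center). They came from animals called here mouse 1 to mouse 7, of which mice 1, 2, 4, 5 and 7 gave all 3 groups, mouse 3 gave GFP+-RPE alone and mouse 6 central GFP–-RPE alone. Mouse 1 carries 2 animal numbers in the labels and was taken as a pool of 2 animals. Expression in a pool is a sum over its cells, so fewer cells with a transcript and less transcript per cell cannot be told apart.

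A cell enters the cycle when D-type cyclins with CDK4 or CDK6 phosphorylate the pocket proteins, which otherwise hold E2F factors on their target promoters. E2F then raises the genes of DNA replication, and the later genes of G2 and mitosis follow through promoter elements named CHR and CCAAT box. Through the CHR the DREAM complex keeps these later genes silent in resting cells. INK4 and CIP/KIP proteins block the kinases. The RPE of an adult mouse is a resting monolayer whose cells left the cycle early in life.

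The promoters of 4 genes are printed because they carry these elements. They belong to Cdk1, which was detected in most libraries, to Ccnb2 and Top2a, mitotic genes at or under 3 counts in every library, and to Mcm6, a helicase subunit at or under 3 counts in every library. Each shows the 250 bases before the RefSeq transcription start on GRCm38.p6, 5′ to 3′ on the gene's strand, and capitals mark matches on either strand to E2F (TTTCCCGC, TTTCGCGC, TTTGCCGC or TTTGGCGC), CHR (TTTGAA or TTCGAA) or CCAAT. The first E2F stretch of Mcm6 holds 2 overlapping matches, 1 on each strand. Ccnb2 has another CHR match, at position 4 past the start, which lies outside the printed bases. The 4 regions are chr10:69352913-69353162 for Cdk1, chr9:70421555-70421804 for Ccnb2, chr11:99024190-99024439 for Top2a and chr1:128359706-128359955 for Mcm6, all on the minus strand.
Cdk1: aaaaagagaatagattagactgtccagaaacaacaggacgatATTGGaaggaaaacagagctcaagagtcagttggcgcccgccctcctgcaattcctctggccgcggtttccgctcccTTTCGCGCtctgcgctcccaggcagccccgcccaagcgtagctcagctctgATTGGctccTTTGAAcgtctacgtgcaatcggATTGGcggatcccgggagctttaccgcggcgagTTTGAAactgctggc
Ccnb2: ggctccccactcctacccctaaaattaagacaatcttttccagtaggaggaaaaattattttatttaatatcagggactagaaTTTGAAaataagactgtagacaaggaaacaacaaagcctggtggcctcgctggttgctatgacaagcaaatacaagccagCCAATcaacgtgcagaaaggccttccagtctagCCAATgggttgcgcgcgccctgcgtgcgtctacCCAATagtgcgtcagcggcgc
Top2a: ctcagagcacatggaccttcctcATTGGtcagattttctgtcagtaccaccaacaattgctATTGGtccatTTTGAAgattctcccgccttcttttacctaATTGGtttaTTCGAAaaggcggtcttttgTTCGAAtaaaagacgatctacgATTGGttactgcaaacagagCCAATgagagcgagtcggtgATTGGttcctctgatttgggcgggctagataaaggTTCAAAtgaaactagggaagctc
Mcm6: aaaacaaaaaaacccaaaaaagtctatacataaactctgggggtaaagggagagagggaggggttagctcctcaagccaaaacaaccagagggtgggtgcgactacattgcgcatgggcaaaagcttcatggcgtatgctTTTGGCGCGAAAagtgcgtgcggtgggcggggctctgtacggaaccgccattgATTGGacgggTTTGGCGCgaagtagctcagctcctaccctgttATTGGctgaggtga

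RefSeq promoters were matched for 33 of the 43 genes, and the search covered 250 bases before to 50 bases after each start. A CHR match stood in 7 of the 9 S, G2 and M genes with a promoter (77.8%), against 21.7% of 27025 genes. A CCAAT match stood in 8 of these 9 (88.9%), against 41.1% of all genes. Neither was limited to this family: over the 33 genes the shares were 39.4% for CHR and 69.7% for CCAAT. All 6 helicase and clamp genes held a CCAAT match. E2F matches stood in 4 of 6 helicase and clamp genes (66.7%), against 2.6% of all genes, and in 1 of the 9 S, G2 and M genes, Cdk1. A match is a description of the sequence, and factor binding was not measured.

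The libraries held 9896118 to 22467079 counts. Serpine3 had 107 to 576 counts in the GFP+-RPE libraries, 0 in all central ones and at most 5 in the peripheral GFP–-RPE ones, as the labels require. Of 12 RPE markers, 11 were above 3 counts in every library; Best1 was at or under 2. The central libraries of mice 4, 5 and 7 stood apart, with 6309 to 7298 genes above 3 counts, against 8465 or more in the other 14. Mitochondrial genes took 0.71 to 17.2% of counts in GFP+-RPE, 12.5 to 30.4% in peripheral GFP–-RPE and 13.7 to 47.3% in central GFP–-RPE.

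A gene was read as detected above 3 counts, the number that a count of 0 allows. By this measure 5 of the 43 genes were detected in all 17 libraries, 12 in 14 to 16, 9 in 4 to 13, 9 in 1 to 3 and 8 in none. The 5 were the D-type cyclins Ccnd1 and Ccnd3, their kinases Cdk4 and Cdk6, and the inhibitor Cdkn1b. The 8 were the inhibitors Cdkn2a and Cdkn2c, the factor E2f2, Mcm6 and, among mitotic genes, Ccnb2, Top2a, Plk1 and Aurkb. Of 731 values (43 genes in 17 libraries), 359 (49.1%) were above 3 counts, against 42.6% over all genes of the table.

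**Figure D1:**
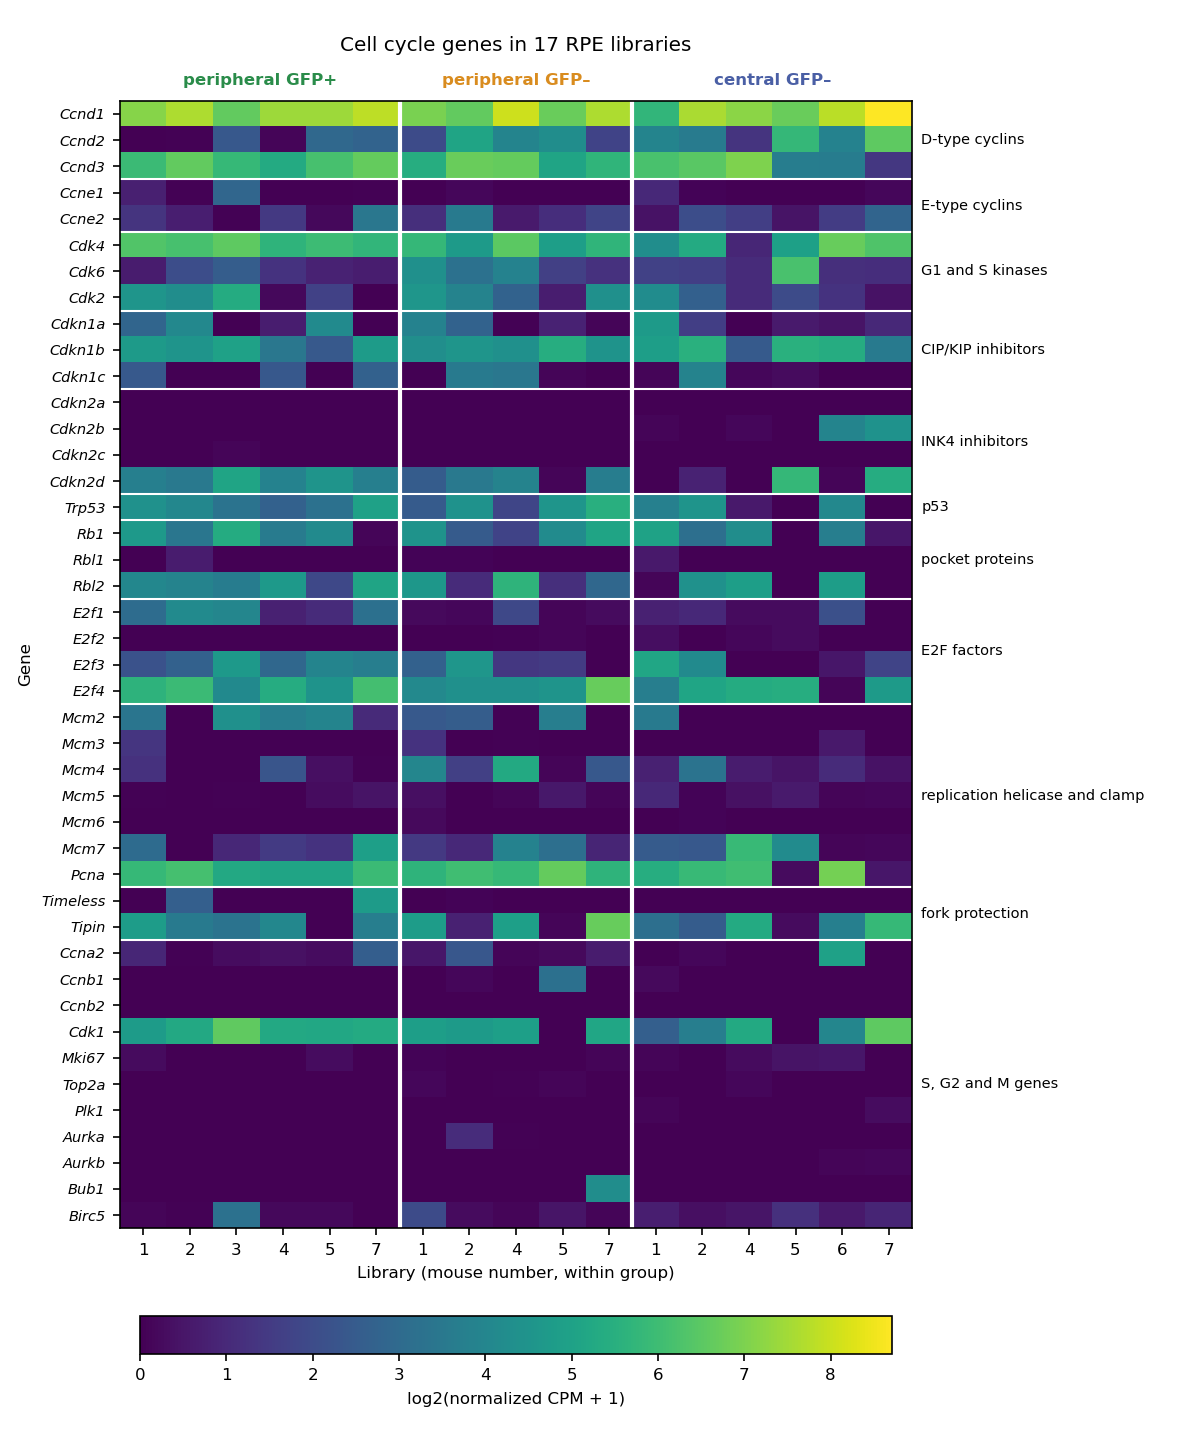
Heat map of log2(normalized CPM + 1) for the 43 genes (rows, by family) in 17 libraries (columns, by group and mouse number), with the colour scale below. Ccnd1, Cdk4 and Pcna are bright in most libraries of each group. Ccnd3 and Cdk1 are bright in most GFP+-RPE and peripheral GFP–-RPE libraries and vary among the central ones. Ccnd2 is dark in 3 GFP+-RPE libraries, and most rows of the S, G2 and M family are dark apart from single libraries.

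The number of the 43 genes detected per library was 26, 20, 22, 22, 20 and 22 in GFP+-RPE (mice 1, 2, 3, 4, 5 and 7). It was 25, 25, 21, 20 and 20 in peripheral GFP–-RPE (mice 1, 2, 4, 5 and 7) and 24, 23, 18, 11, 23 and 17 in central GFP–-RPE (mice 1, 2, 4, 5, 6 and 7). The 3 lowest libraries were the same central ones that had the fewest genes in all and mitochondrial shares of 32.4, 47.3 and 37%. The part of that in the lower detection was not tested. Without these 3 libraries, 7 of the 43 genes were detected in every library and 8 in none.

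**Figure D2:**
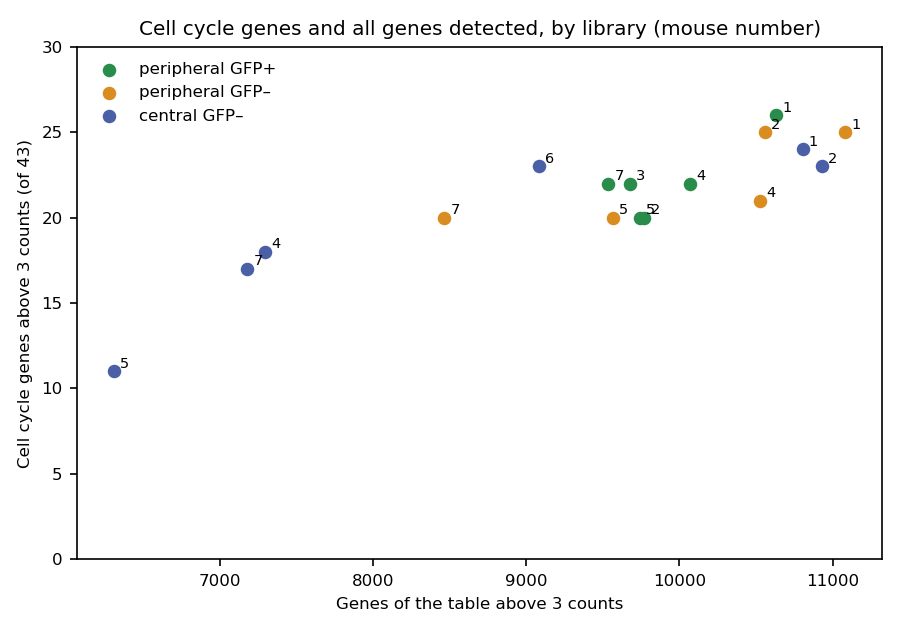
Number of the 43 cell cycle genes above 3 counts (y axis) against the number of all genes above 3 counts (x axis), each point a library with its mouse number and coloured by group. The central libraries of mice 4, 5 and 7 lie lowest on both axes, and the GFP+-RPE libraries lie between 20 and 26 genes.

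Genes of S, G2 and M phase other than Cdk1 were largely undetected in all 3 groups. Over these 10 genes and 17 libraries, 23 of 170 values (13.5%) were above 3 counts, 9 were at least 10 and 119 were 0. The share was 14.3% without the 3 central libraries with few genes, against 45.1% of all genes. Mki67, the common marker of cycling cells, had 5, 0, 0, 0, 3 and 0 counts in GFP+-RPE, 1, 0, 0, 0 and 1 in peripheral GFP–-RPE and 1, 0, 2, 2, 6 and 0 in central GFP–-RPE. No library held more than 6 of its counts. Top2a (DNA topoisomerase), Plk1 (a mitotic kinase) and Aurkb (a kinase of the chromosomal passenger complex) stayed at or under 2 counts and Ccnb2 (a mitotic cyclin) was 0 throughout.

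Of the 9 values of at least 10 counts, Ccna2 had 4, Birc5 had 2, and Ccnb1, Bub1 and Aurka had 1 each. Ccnb1, the main mitotic cyclin, had 104 counts in peripheral GFP–-RPE of mouse 5 and at most 2 in each of the other 16 libraries. Bub1, a spindle checkpoint kinase, had 185 counts in peripheral GFP–-RPE of mouse 7 and 0 in the rest. Aurka, a centrosomal kinase, had 22 counts in peripheral GFP–-RPE of mouse 2 and at most 1 in the others. None of these 3 libraries held more than 2 counts of Top2a, Plk1 or Mki67. That of mouse 2 also held 81 counts of Ccna2, the highest of its group. It held 20 counts of Mybl2, and those of mice 5 and 7 held more of Mybl2 (values below).

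Ccna2, the cyclin of S and G2 phase, had 23, 1, 5, 4, 3 and 107 counts in GFP+-RPE and 8, 81, 2, 2 and 6 in peripheral GFP–-RPE. In central GFP–-RPE it had 0, 2, 0, 0, 406 and 0. The library of 406 counts (mouse 6) thus stood alone in its group; there Exosc9, whose exons overlap Ccna2 on the opposite strand, had 547 counts. Exosc9 also had 942 and 819 counts in GFP+-RPE of mice 2 and 3, where Ccna2 had 1 and 5. The use of strand in counting is not given in the sources used here. Birc5, the passenger protein survivin, had 2, 1, 193, 2, 2 and 0 counts in GFP+-RPE, 54, 4, 2, 5 and 1 in peripheral GFP–-RPE and 8, 5, 4, 7, 7 and 8 in central GFP–-RPE. It was thus above 3 counts in all 6 central libraries but at 10 or more only in GFP+-RPE of mouse 3 and peripheral GFP–-RPE of mouse 1.

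Cdk1, the kinase that drives mitosis, was the S, G2 and M gene detected in most libraries (15 of 17). It had 676, 781, 2126, 492, 519 and 810 counts in GFP+-RPE, 517, 504, 610, 0 and 346 in peripheral GFP–-RPE and 62, 224, 386, 0, 200 and 839 in central GFP–-RPE. All 6 GFP+-RPE libraries held it, and the groups overlapped. Its level was 45.0 ± 24.6 CPM (library-scaled counts, SD, n = 6) in GFP+-RPE, 23.7 ± 13.6 (n = 5) in peripheral GFP–-RPE and 27.3 ± 34.8 (n = 6) in central GFP–-RPE. The log2 fold change of GFP+-RPE was 0.68 ± 0.945 (SE) against central and 0.96 ± 0.828 against peripheral GFP–-RPE (edgeR quasi-likelihood test, adjusted p = 1.0 for both). In all 15 libraries that held Cdk1, the mitotic cyclins Ccnb1 and Ccnb2 were at or under 2 counts. The library with 104 counts of Ccnb1 (peripheral GFP–-RPE of mouse 5) was one of the 2 without Cdk1. Ccna2 was above 3 counts in 8 libraries. It had 406 counts beside 200 of Cdk1 in central GFP–-RPE of mouse 6. In GFP+-RPE of mouse 7 it had 107 beside 810, and in peripheral GFP–-RPE of mouse 2 it had 81 beside 504. No exon of another gene overlaps Cdk1 in the annotation.

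GFP+-RPE of mouse 3 held the highest Cdk1 (2126), Birc5 (193) and Ccne1 (142) of its group. In that library the summed level of 12 rod and cone markers was 175 CPM, the highest of the GFP+-RPE libraries, with 6 of the 12 above 3 counts and 261 counts of Nrl, 186 of Sag and 1284 of Pdc. The sum ranged from 62.4 to 175 CPM in GFP+-RPE, 68.4 to 145 in peripheral GFP–-RPE and 35.9 to 230 in central GFP–-RPE. The same library held 156 counts of lymphocyte markers (6.93 CPM), against at most 2 counts in the other GFP+-RPE libraries, and 7.96 CPM of fibroblast markers, against at most 2.49. The part of such transcripts in the values of mouse 3 was not tested. Of 12 macrophage markers (summed level 35.6 to 147 CPM), only Csf1r was above 3 counts in every library, and C1qa, C1qb, Tyrobp and Lyz2 were 0 in every library. Summed endothelial, fibroblast and lymphocyte markers reached at most 26.0, 10.6 and 19.3 CPM, and the 5 melanocyte genes 39.4 to 241 CPM.

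Of the D-type cyclins, which partner CDK4 and CDK6, Ccnd1 had 2166, 3030 and 4836 counts (lowest, median and highest) in GFP+-RPE. It had 2235, 1879, 5419, 1316 and 2004 counts in peripheral GFP–-RPE, and 571, 2225 and 3767 (lowest, median and highest) in central GFP–-RPE. Per kilobase of exon it led the 43 genes in every group, with 35.7 ± 9.87 CPM per kb in GFP+-RPE, 33.4 ± 15.0 in peripheral GFP–-RPE and 40.3 ± 27.0 in central GFP–-RPE. Over all libraries Pcna, Cdk4, E2f4 and Tipin followed at 21.8 ± 12.2, 16.8 ± 8.83, 14.1 ± 10.0 and 11.1 ± 13.9 CPM per kb, neighbours in an order that their spreads do not separate. Its level did not differ detectably between groups, with log2 fold changes from −0.33 to 0.14 in the 3 comparisons. The third cyclin of the family, Ccnd3, lay at 70.6 ± 24.1, 65.9 ± 33.3 and 52.8 ± 52.3 CPM in GFP+-RPE, peripheral and central GFP–-RPE.

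Ccnd2, the D-type cyclin often linked to growth factor signals, had the lowest unadjusted p of the 43 genes in GFP+-RPE against central GFP–-RPE. It had 0, 1, 97, 1, 94 and 121 counts in GFP+-RPE, 54, 632, 293, 233 and 24 in peripheral GFP–-RPE and 169, 204, 15, 296, 179 and 829 in central GFP–-RPE. It was at or under 1 count in 3 of 6 GFP+-RPE libraries and above 3 in all 11 others, although the ranges overlapped. Levels were 2.80 ± 3.12, 14.1 ± 12.5 and 31.2 ± 35.0 CPM. The log2 fold change of GFP+-RPE was −3.63 ± 1.48 (SE) against central GFP–-RPE (edgeR, adjusted p = 0.668) and −2.34 ± 1.47 against peripheral GFP–-RPE (adjusted p = 1.0). Neither passed the adjusted test. Within mice 1 to 3 the mean was 1.45 CPM for GFP+-RPE against 12.7 for the central pools. Within mice 4 to 7 it was 4.15 against 40.4, so the order held in both runs of animal numbers. Without the central libraries of mice 4, 5 and 7 the value was −2.26 (edgeR, adjusted p = 0.952) and the unadjusted p was no longer under 0.05.

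The kinase Cdk4 had 68.0 ± 16.9, 50.2 ± 26.3 and 44.5 ± 37.9 CPM in GFP+-RPE, peripheral and central GFP–-RPE, and its exons overlap those of Tspan31 on the opposite strand. Cdk6, the second kinase of the D-type cyclins, had 15, 66, 112, 19, 11 and 13 counts in GFP+-RPE, 352, 163, 281, 27 and 14 in peripheral GFP–-RPE and 26, 38, 11, 399, 17 and 11 in central GFP–-RPE. Its log2 fold change of −3.07 ± 1.49 against central GFP–-RPE (edgeR, adjusted p = 0.870) rested on the library of mouse 5 and became 0.24 without it. Against peripheral GFP–-RPE it was −2.19 ± 1.21 (edgeR, adjusted p = 0.966) and kept its direction under every alternative (−2.72 to −1.67). Cdk2, the kinase of cyclins E and A, was above 3 counts in 14 libraries, at 13.8 ± 16.1, 12.5 ± 9.24 and 4.83 ± 6.58 CPM. Of the E-type cyclins, which take cells into S phase, Ccne2 was detected in 14 libraries at up to 214 counts. Ccne1 was above 3 counts in 3 libraries, with 18 and 142 counts in GFP+-RPE of mice 1 and 3 and 12 in central GFP–-RPE of mouse 1.

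Transcripts of cell cycle inhibitors were present in every group, and no group held more of them by the adjusted test. Cdkn1b, the p27 protein of resting cells, was above 3 counts in all 17 libraries. It had 659, 454, 695, 131, 62 and 552 counts in GFP+-RPE, 333, 427, 405, 523 and 217 in peripheral GFP–-RPE and 335, 823, 46, 243, 541 and 97 in central GFP–-RPE. Its levels of 19.8 ± 10.4, 24.6 ± 9.56 and 29.0 ± 17.8 CPM gave a log2 fold change of −0.65 ± 0.785 (SE) in GFP+-RPE against central GFP–-RPE (edgeR, adjusted p = 1.0). Cdkn1c, the p57 protein, was above 3 counts in 6 libraries.

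Cdkn1a, the p21 protein induced by p53, was found mostly in the libraries of mice 1 and 2, the first a pool of 2 animals. It had 160, 334, 0, 8, 240 and 0 counts in GFP+-RPE, 242, 110, 1, 10 and 1 in peripheral GFP–-RPE and 305, 37, 0, 3, 5 and 9 in central GFP–-RPE. All 6 libraries of mice 1 and 2 held 37 to 334 counts, whereas 1 of the 11 libraries of mice 3 to 7 held more than 10, that of GFP+-RPE of mouse 5. This pattern was seen after the values were known and was not tested. Group log2 fold changes were 0.28 ± 1.77, 0.72 ± 1.79 and −0.43 ± 1.77 in the 3 comparisons.

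Among INK4 inhibitors, which bind CDK4 and CDK6, Cdkn2d was detected in 13 libraries. It had 324, 220, 739, 180, 310 and 265 counts in GFP+-RPE, 87, 204, 289, 1 and 121 in peripheral GFP–-RPE and 0, 14, 0, 293, 1 and 369 in central GFP–-RPE. All GFP+-RPE libraries thus held at least 180 counts, whereas 4 of 6 central libraries held at most 14. Of these 4, that of mouse 4, with 0 counts, was among the 3 with few genes. So were the other 2, of mice 5 and 7. These 2 held 54.2 and 40.9 CPM, above every GFP+-RPE library, and the overlap rests on them. Its log2 fold change was −0.09 ± 1.49 against central and 1.10 ± 0.942 against peripheral GFP–-RPE (edgeR, adjusted p = 1.0 for both). Cdkn2b, the p15 protein induced by TGF-beta, had 192 and 186 counts in central GFP–-RPE of mice 6 and 7 and at most 1 in the other 15 libraries. It did not pass the edgeR filter, and by DESeq2 GFP+-RPE against central GFP–-RPE had an adjusted p of 0.0108, above the limit of 0.01. Cdkn2a, the p16 and p19 locus tied to senescence, was 0 in every library, and Cdkn2c had at most 2 counts.

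Trp53, which encodes p53, was above 3 counts in all libraries of both peripheral groups and in 4 of 6 central ones, at 14.9 ± 9.34, 18.8 ± 16.6 and 8.47 ± 9.51 CPM. The pocket proteins Rb1 (15 libraries) and Rbl2 (14 libraries), the latter part of the DREAM complex of resting cells, were detected widely, whereas Rbl1, more typical of cycling cells, had at most 12 counts. Rb1 had 635, 204, 892, 151, 239 and 2 counts in GFP+-RPE, 380, 90, 50, 218 and 331 in peripheral GFP–-RPE and 375, 148, 182, 0, 165 and 4 in central GFP–-RPE. Rbl2 lay at 16.8 ± 10.5, 16.5 ± 21.0 and 12.9 ± 14.4 CPM. E2f4, the repressor E2F of resting cells, was detected in 16 libraries at 42.5 ± 20.6, 35.5 ± 36.5 and 25.6 ± 16.6 CPM. Per kilobase of exon it was the highest of the 4 E2F genes in each group. The activator E2f3 was above 3 counts in 14 libraries and E2f2 in none.

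E2f1, an activator E2F and itself an E2F target, was the one gene with an unadjusted p under 0.05 in both comparisons of GFP+-RPE, which share their GFP+-RPE libraries. It had 193, 357, 337, 10, 16 and 172 counts in GFP+-RPE, 3, 2, 56, 1 and 2 in peripheral GFP–-RPE and 9, 18, 2, 1, 45 and 0 in central GFP–-RPE. All 6 GFP+-RPE libraries were above 3 counts, against 1 of 5 and 3 of 6, and the ranges overlapped through GFP+-RPE of mice 4 and 5. Levels were 8.25 ± 6.76, 0.649 ± 1.15 and 0.918 ± 1.26 CPM. The log2 fold change was 3.14 ± 1.40 (SE) against central (edgeR, adjusted p = 0.775) and 3.71 ± 1.52 against peripheral GFP–-RPE (adjusted p = 0.799). DESeq2 gave adjusted p = 0.0474 and 0.0546, above the limit of 0.01.

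Means of E2f1 in mice 1 to 3 were 13.1 CPM in GFP+-RPE, 0.135 in peripheral and 0.873 in central GFP–-RPE. In mice 4 to 7 they were 3.36, 0.991 and 0.940 CPM. The order of means against both control groups thus held in each run, with a smaller gap in the second. The mean of 3.36 CPM rested on GFP+-RPE of mouse 7 (8.20 CPM). GFP+-RPE of mice 4 and 5 had 0.755 and 1.13 CPM, under peripheral mouse 4 (2.70) and central mouse 6 (3.37). With the mouse as a block the values were 3.64 (edgeR, adjusted p = 0.906) and 4.56 (adjusted p = 0.814), and without the central libraries of mice 4, 5 and 7 the first was 2.31 (adjusted p = 0.931). In these 3 fits the unadjusted p was not under 0.05.

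**Figure D3:**
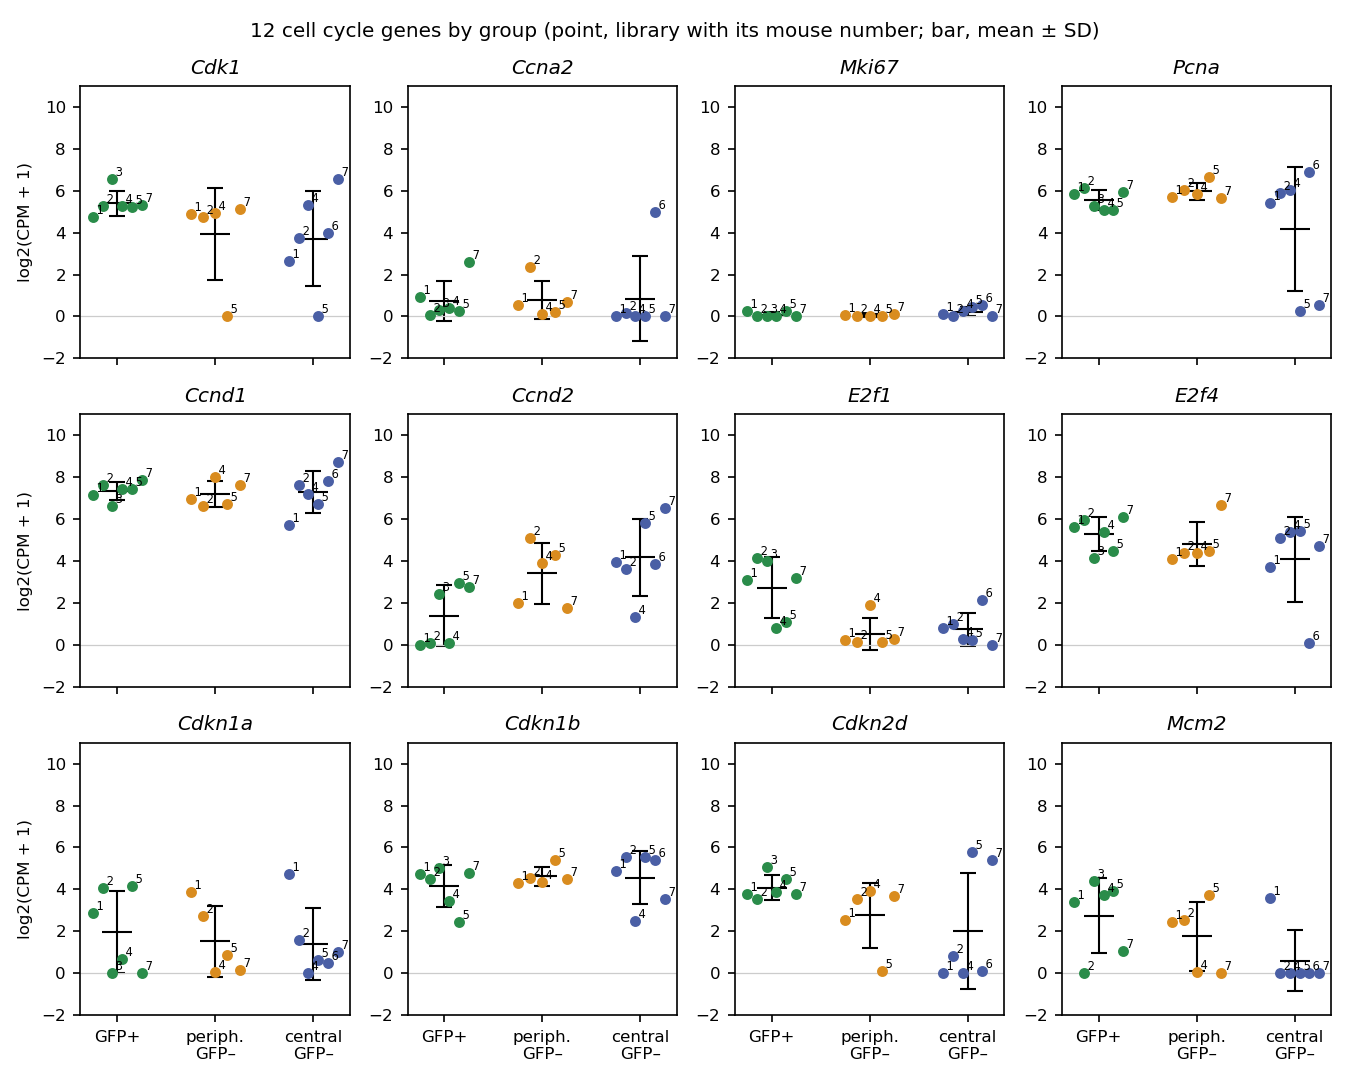
log2(normalized CPM + 1) (y axis) of 12 genes by group (x axis), each point a library with its mouse number, with the mean and SD as a bar. E2f1 lies higher and Ccnd2 lower in GFP+-RPE with overlapping points, Mki67 lies near 0 in all groups, and Ccnd1 is similar in all groups.

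Of the replication genes, the clamp Pcna, which also serves DNA repair, was detected in 16 libraries. It had 1456, 1451, 845, 433, 465 and 1258 counts in GFP+-RPE, 903, 1251, 1176, 1249 and 499 in peripheral GFP–-RPE and 494, 1056, 642, 1, 1572 and 4 in central GFP–-RPE. The 2 central libraries near 0, of mice 5 and 7, were among the 3 with few genes. The other 15 libraries held 433 to 1572 counts. Levels were 48.1 ± 15.7, 64.1 ± 20.6 and 47.0 ± 44.3 CPM in GFP+-RPE, peripheral and central GFP–-RPE.

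The 6 subunits of the MCM helicase were detected unevenly. Mcm7 was above 3 counts in 14 libraries, Mcm4 in 11, Mcm2 in 9, Mcm5 in 4, Mcm3 in 3 and Mcm6 in none. Mcm2 had 246, 0, 447, 162, 200 and 22 counts in GFP+-RPE, 79, 94, 1, 155 and 0 in peripheral GFP–-RPE and 129, 0, 0, 0, 0 and 0 in central GFP–-RPE. It was above 3 counts in 5 of 6 GFP+-RPE libraries and 1 of 6 central ones, with a log2 fold change of 2.22 ± 1.97 (edgeR, adjusted p = 1.0). Mcm4 had the opposite order against peripheral GFP–-RPE, at 0.935 ± 1.55 and 11.8 ± 15.6 CPM (log2 fold change −3.58 ± 1.77, edgeR, adjusted p = 0.910). The exons of Mcm7 overlap those of Cops6 and Ap4m1.

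The fork protection partners Timeless and Tipin did not go together. Timeless had 110 and 560 counts in GFP+-RPE of mice 2 and 7 and at most 1 in the other 15 libraries, whereas Tipin was above 3 counts in 14. Timeless did not pass the edgeR filter on low counts; DESeq2 called it for GFP+-RPE over the central pools (adjusted p = 7.36e-10), on those 2 libraries.

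No gene of the set passed the test between groups (edgeR quasi-likelihood; limits of 0.01 on the Benjamini-Hochberg adjusted p and of 1 on the size of the log2 fold change). In GFP+-RPE against central GFP–-RPE 0 of 21 tested genes were called, where 0.0431% of all tested genes were. Unadjusted p under 0.05 was reached by 2 genes of the set against 5.8% of all genes: 1 higher (E2f1), against 2.14%, and 1 lower (Ccnd2), against 3.66%. DESeq2 called 1 gene of the set, Timeless, where it called 1.62% of all genes. The lowest adjusted p by edgeR was 0.668, and the median log2 fold change was 0.28, against 0 over all genes.

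In GFP+-RPE against peripheral GFP–-RPE 0 of 23 tested genes were called, where 0.0396% of all were, and 1 had an unadjusted p under 0.05 (E2f1, higher). Of all genes 5.58% did, 2.75% higher and 2.83% lower. DESeq2 called 0 of the set and 0.571% of all genes. The median log2 fold change was 0.14, against 0.01 over all genes. In peripheral against central GFP–-RPE edgeR called 0 of 20 genes and 0% of all, and the median was 0.19, against 0.01. That median was −0.20, −0.10 and −0.19 without peripheral mouse 2, 4 or 7, so its sign rests on single libraries. None of the set had an unadjusted p under 0.05, against 2.7% of all genes (1.03% higher and 1.67% lower), and DESeq2 called 0 of the set and 0.258% of all. In none of the 3 comparisons did the ranges of the 2 groups fail to overlap for any tested gene of the set. That happened for 0.862% of all genes toward higher and 0.269% toward lower values in the first comparison, for 0.624% and 0.663% in the second, and for 0.64% and 0.115% in the third.

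These counts are read against wide spreads. The biological coefficient of variation was 1.22, 1.07 and 1.29 in the 3 comparisons. Serpine3, the gene that carries the GFP, was not called by the edgeR test either. In GFP+-RPE its log2 fold change was 10.55 ± 1.88 (SE) against central GFP–-RPE (edgeR, adjusted p = 0.0699). Against peripheral GFP–-RPE it was 7.56 ± 1.73 (edgeR, adjusted p = 0.255). An adjusted p over the limit therefore does not show that levels were alike: the SE of the log2 fold change reached 1.97 among the genes tested, and exceeded 1 for most.

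**Figure D4:**
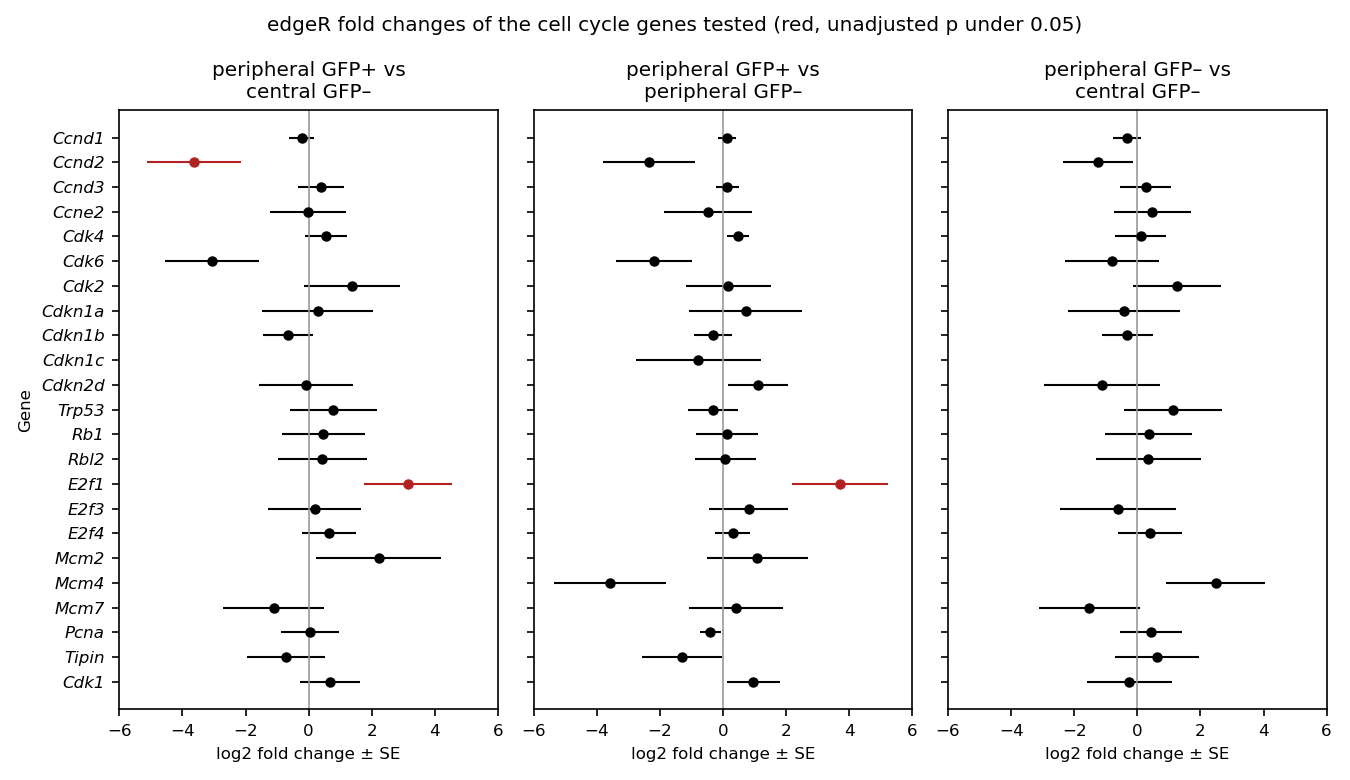
log2 fold change ± SE (x axis) from edgeR for the cell cycle genes tested (y axis) in the 3 comparisons, with unadjusted p under 0.05 in red. Ccnd2 and E2f1 are red in the first panel, E2f1 in the second and none in the third.

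Further genes of the same processes, in lists of named genes, gave 0 calls by edgeR in all 3 comparisons. Of their 140 genes, 60, 68 and 67 were tested by edgeR. DESeq2 called 1 of 88 genes with an adjusted p in GFP+-RPE against central GFP–-RPE (1.14%, against 1.62% of all genes), 2 of 86 against peripheral GFP–-RPE (2.33%, against 0.571%) and 0 of 83 in the third comparison (against 0.258%). These were Uhrf1, a chromatin protein of S phase, with 0 counts in all GFP+-RPE libraries and 231 and 33 in central GFP–-RPE of mice 1 and 6, Gins1, a helicase subunit, with 105 and 74 counts in GFP+-RPE of mice 2 and 4 and 0 in peripheral GFP–-RPE, and Mybl2. The first 2 rest on 2 libraries each. Of 31 genes of replication licensing and DNA synthesis, 16 were tested in GFP+-RPE against central GFP–-RPE, with a median log2 fold change of −0.54. Pola1, the catalytic subunit of DNA polymerase alpha, was the one with an unadjusted p under 0.05 (−3.62 ± 1.61, edgeR, adjusted p = 0.775). Orc4, an origin recognition subunit, had 2.14 ± 1.02 (edgeR, adjusted p = 0.856), and Orc6 had −1.83 ± 1.19 (edgeR, adjusted p = 1.0). Cdc6, Cdt1 and Rrm2, which load the helicase or supply nucleotides in S phase, were at or under 3 counts in every library.

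Of 26 genes of mitosis and the spindle checkpoint, 5 were tested, with a median of −0.25, and 26.5% of their values were above 3 counts. Pttg1, which encodes securin, stood out with 510 to 4950 counts in all 17 libraries and no detectable difference (−0.25 ± 0.280, edgeR, adjusted p = 1.0). Incenp (−1.65) and Mad2l1 (−1.60) had the lowest p of the list with it. Kif23, Nusap1, Ccnf, Nuf2, Anln and Aspm were at or under 3 counts in every library. Of the 17 genes of the DREAM complex and cell cycle transcription, 8 were tested with a median of −0.03, and Rbbp4, E2f5 and E2f6 had 0.58, 1.25 and 1.05. Mybl2, the MYB factor of cycling cells, had at most 1 count in the GFP+-RPE libraries, 94, 20, 1, 56 and 122 in peripheral GFP–-RPE and 1, 46, 1, 2, 1 and 0 in central GFP–-RPE. DESeq2 called it lower in GFP+-RPE than in peripheral GFP–-RPE (adjusted p = 2.13e-04); it did not pass the edgeR filter there. Foxm1, its partner in mitotic transcription, had 89 counts in central GFP–-RPE of mouse 7 and 0 in the rest.

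Of 17 genes of CDK activation and cyclin turnover, 11 were tested with a median of −0.27; Anapc1, Fbxw7 and Cdc27, which serve the degradation of cyclins, had −1.02, −0.60 and −0.79. Of 15 p53 targets, 8 were tested with a median of −0.42; Zmat3, Ccng1 and Aen had −1.78, −1.15 and 1.00. Of 15 genes of quiescence and FOXO signalling, 9 were tested with a median of −0.04; Tsc1, Foxo1 and Tob1 had 1.99, −1.60 and 0.47. No gene of these 3 lists had an unadjusted p under 0.05 in this comparison. Of 19 immediate early and dissociation genes, 3 were tested (Jund, Dnajb1 and Hspa1a, at −0.57, −0.35 and −0.15). Their summed level was 12.8 to 103 CPM across libraries. In GFP+-RPE against peripheral GFP–-RPE Hspa1a had 4.40 ± 2.02 (edgeR, adjusted p = 0.884), with an unadjusted p under 0.05.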

How the data were processed

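RPE cells of Serpine3GFP/+ mice were pooled, and libraries were made with a SMART-Seq kit and sequenced single-end, per the labels and the paper's methods. The authors deposited estimated counts per gene symbol as whole numbers without normalization; the submitters' processing notes list fastp, Salmon and GRCm38.p6. Strand, annotation and rounding are not given in the sources used here. The methods give fewer cells per pool than the labels. Groups came from the labels; 0 columns were left unused.

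Values were computed with edgeR (version 4.0.16) in R (version 4.3.3): default filter, TMM, the quasi-likelihood test over the libraries of the 2 groups compared, and Benjamini-Hochberg adjustment over all genes tested. The paper names DESeq2, which was run (version 1.42.0) as an alternative. CPM were scaled over all 17 libraries; a count of 0 was taken to allow 3 counts (0.116 to 0.554 CPM), covering counting error only, since no molecular identifiers were counted. Levels per kb used merged exons of GENCODE M21 on GRCm38, where 98.2% of symbols were found. With the longest transcript in their place, Ccnd3 took the place of Tipin among the 5 highest genes. On simulated counts the edgeR procedure called 42, 59 and 37% of true 16-fold changes in the 3 comparisons. Of true 256-fold changes it called 86, 87 and 80%, so smaller changes were often missed. The simulated counts were negative binomial with 100 genes changed at each fold, more than were called in these data. These shares therefore need not hold for the counts here, where Serpine3 was not called. Reads of overlapping genes may be shared: 9 of the 43 genes overlap exons of another gene of the table (Ccnd1 with LTO1, Ccnd3 with Bysl, Ccne2 with Ints8, Cdk2 with Pmel, Rb1 with Rcbtb2 and Lpar6, Rbl2 with Aktip, and those named with their values).

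The genes, lists and tests were chosen with earlier results of these data known. Every gene of the set is accounted for; from each list the called genes, or up to 3 with the smallest p in GFP+-RPE against central GFP–-RPE, were named. Mybl2, Foxm1 and the genes named as undetected were chosen after their values were seen. Libraries of a mouse number come from the same animals, so the mouse as a block was an alternative; over 15 pairs, deviations from group means correlated at −0.0172 to 0.0986. The labels do not say whether the cells of 1 pool came from 1 eye. Other alternatives were size factors, filters, thinning, a run covariate, robust estimation, all groups in the fit, other limits and each library left out. Fits without the central libraries of mice 5 and 7, and then of mice 4, 5 and 7, were added after seeing the data.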

Additional observations from a re-analysis of the deposited data

Results flagged for a closer look

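In 101 sets of 5 or 6 libraries of a group, 29 had a highest or lowest value farther from the rest than Dixon's 95% limit on the log2(CPM + 1) scale; chance flags about 1 in 20 sets of normally spread values. That rate is no chance level for these counts, since 6 of the high values stood in groups whose other libraries were all at 0 (Rbl1, Mcm2, Mcm3 and Bub1) and are flagged by construction. Of these, 25 were a high value and 4 a low one, and the values are counts unless stated.

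In GFP+-RPE the high values were Ccne1 142, Cdk1 2126 and Birc5 193 in mouse 3, Rbl1 12 in mouse 2, Mcm3 40 in mouse 1 and Ccna2 107 in mouse 7, with 26 of the 43 genes above 3 counts in mouse 1. The low values there were Rb1 2 in mouse 7 and Tipin 0 in mouse 5. In peripheral GFP–-RPE the high values were Cdkn1b 523 and Ccnb1 104 in mouse 5, E2f1 56 in mouse 4, E2f4 1019 and Bub1 185 in mouse 7, Mcm3 25 and Birc5 54 in mouse 1, and Ccna2 81 and Aurka 22 in mouse 2. The low value was Cdk1 0 in mouse 5. In central GFP–-RPE the high values were Ccne1 12, Cdkn1a 305, Rbl1 6 and Mcm2 129 in mouse 1, Cdk6 399 in mouse 5, Cdkn1c 250 and Mcm4 163 in mouse 2, and Mcm3 7 and Ccna2 406 in mouse 6. The low value was E2f4 1 in mouse 6.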

How the results depend on the processing

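The count of cell cycle genes called stayed at 0 in all 3 comparisons under every alternative by edgeR, from 0 to 0 with each library left out and 0 under a replicate block by mouse. DESeq2 called 1 (GFP+-RPE against central GFP–-RPE), and an unadjusted p under 0.05 as the limit gave 2 there and 1 against peripheral GFP–-RPE. The block changed no call of these genes, although over all genes it called 56 in place of 4 in the first comparison (0 in place of 4 against peripheral GFP–-RPE), moving the median of all genes by 0.57. DESeq2 called 202, 67 and 29 genes in all, and edgeR with each library left out 1 to 3, 0 to 5 and 0. The cause of these differences was not tested. The log2 fold change of Cdk6 in GFP+-RPE against central GFP–-RPE turned from −3.07 to 0.24 without central mouse 5 (−3.54 to 0.24 with each library left out), 0.18 without central mice 5 and 7, and 0.03 without mice 4, 5 and 7. That of Ccnd2 kept its direction (−5.46 to −1.91), as did E2f1 (2.31 to 4.16 against central, 3.32 to 5.88 against peripheral GFP–-RPE). Of the 21 genes tested there, 10 changed sign without central mice 5 and 7 and 11 without mice 4, 5 and 7; in peripheral against central GFP–-RPE 9 and 8 of 20 did. The median over the set against central GFP–-RPE was −0.10 without mice 5 and 7 and 0.13 without mice 4, 5 and 7; in peripheral against central GFP–-RPE it was −0.20 to 0.25 with each library left out and 0.59 under the block, which moved all genes by 0.49. With at least 1 CPM as the limit, GFP+-RPE libraries held a median of 19.5 of the 43 genes in place of 22, peripheral GFP–-RPE 20 in place of 21 and central GFP–-RPE 16 in place of 20.5. Depth limits statements on genes near 3 counts.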
